A study of Bos taurus with 6 samples.

Results

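The HOX clusters A to D were described from MIRA-Seq, a pulldown and sequencing of methylated DNA, of bovine dermal fibroblasts. A 3 kb window was counted as a HOX window when the gene symbol printed beside it was HOXA, HOXB, HOXC or HOXD followed by a number, and 72 of the 902984 windows met this rule, with 32 gene symbols. Of the 39 genes of these clusters in RefSeq's current bovine table, which was used for names only, 4 more were found by gene ID under a LOC number (HOXA6, HOXB13, HOXC10 and HOXD13), and HOXB3, HOXB5 and HOXB8 were not matched.

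The cultures came from 3 Holstein heifers, and each animal gave a culture at 5 months and another at 16 months of age (n = 3 per age, paired by animal). All 6 were labelled as dermal fibroblasts at passage 5, were grown with serum and received no treatment. The animals had been picked from a larger collection as middle responders to bacterial lipopolysaccharide (LPS), so the groups hold 1 breed, females only, and 1 culture per animal and age. The pulldown uses proteins with a methyl-binding domain on sheared DNA, and reads per window rise with both the methylation and the number of CpG sites, which cannot be told apart here between windows. The assay reads DNA, so the cell type was not checked against expressed markers.

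HOX genes encode homeodomain transcription factors that give the embryo its identity along the head-to-tail axis. Within a cluster the genes follow each other in the order of the body regions they pattern, from the anterior genes with low numbers to the posterior genes with high numbers, and genes of the same number in different clusters are paralogs. Polycomb proteins keep silent HOX genes shut and Trithorax proteins keep active ones open, and skin fibroblasts are known to retain a HOX pattern of the body site they were taken from.

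Counted reads ranged from 19.9 to 43.6 M per library, and CPM (counts per M counted reads) were taken for each window. The share of all windows without a read ranged from 6.70% to 32.4%, and it moved in opposite directions with age in animals 1 and 2. Both libraries of animal 3 were low in HOX windows, with a mean of 0.818 CPM at 5 months and 0.918 CPM at 16 months against 1.38 to 1.63 CPM in the other 4 libraries. Their TMM factors, which scale libraries to each other over the windows tested, were 0.718 and 0.850, against 1.03 to 1.22 in the others. After TMM scaling the HOX means of animal 3 were 1.32 and 1.39 CPM, against 1.27 to 1.74 CPM, so that the animal no longer stood apart. Levels below are CPM without TMM factors unless stated, and their SD over 6 libraries therefore includes this offset.

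The HOX windows of clusters A, B and D held more MIRA-Seq signal than their surroundings, whereas the labelled windows of cluster C held less than theirs. All 72 windows had a mean of 1.31 ± 0.358 CPM (SD, n = 6 libraries). The 272 windows within 100 kb beyond the outermost labelled HOX windows had 0.334 ± 0.0667 CPM. These flanks include the windows of HOXB13 and HOXD13, found by gene ID, with means of 0.497 and 0.393 CPM. The flanks had 0.319 ± 0.0794 CPM beside HOXA, 0.361 ± 0.0856 CPM beside HOXB and 0.203 ± 0.0512 CPM beside HOXD, below the HOX windows of each. Beside HOXC they had 0.453 ± 0.0891 CPM, above its labelled windows, which had a mean of 0.303 CPM. All windows with a gene label on the numbered chromosomes and X had a mean of 0.996 CPM and a median of 0.198 CPM, and the HOX windows had a median of 1.07 CPM. Of the 72, 26 (36.1%) ranked at or above the 90th percentile of windows in the average library, as did 14.6% of all labelled windows, and 15 (20.8%) ranked below the 50th, as did 44.4% of labelled windows. The test by age required 1 CPM in at least 3 libraries, which 38 of the 72 HOX windows met (52.8%) and 34 did not, against 17.7% of labelled windows and 11.6% of all windows.

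HOXA, on chromosome 4 from 69296705 to 69404704 of UMD v3.1, had 27 windows of 10 genes and a mean of 1.44 ± 0.362 CPM per window. HOXB, on chromosome 19 from 38500275 to 38596274, had 13 windows of 6 genes and 1.64 ± 0.485 CPM. HOXD, on chromosome 2 from 20757034 to 20850033, had 17 windows of 8 genes and 1.75 ± 0.532 CPM. These 3 means differed by less than the SD of any of them, but this SD includes the offset that the clusters of a library share. Within libraries, HOXA was below HOXD in each of the 6. With the genes under LOC numbers added, HOXA and HOXD had means of 1.62 and 1.61 CPM.

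HOXC, on chromosome 5 from 26134906 to 26254905, had 15 windows of 8 genes and a mean of 0.303 ± 0.0845 CPM. Animals 1, 2 and 3 had means of 0.385, 0.370 and 0.184 CPM at 5 months and of 0.373, 0.239 and 0.267 CPM at 16 months. Cluster C was the lowest cluster in each of the 6 libraries, and its highest library lay below the lowest library of every other cluster. Only 2 of its 15 windows (13.3%) met the CPM minimum, against 63.0% in HOXA, 53.8% in HOXB and 70.6% in HOXD. Part of the gap followed the labels. The 5 windows of HOXC10, which the files carry as LOC100847795, had 2.03 ± 0.606 CPM, and with them the HOXC mean was 0.735 ± 0.207 CPM, above that of its flanks. With the genes under LOC numbers added to each cluster, the means of HOXA, HOXB and HOXD were 1.62, 1.49 and 1.61 CPM, and HOXC remained the lowest.

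**Figure D1:**
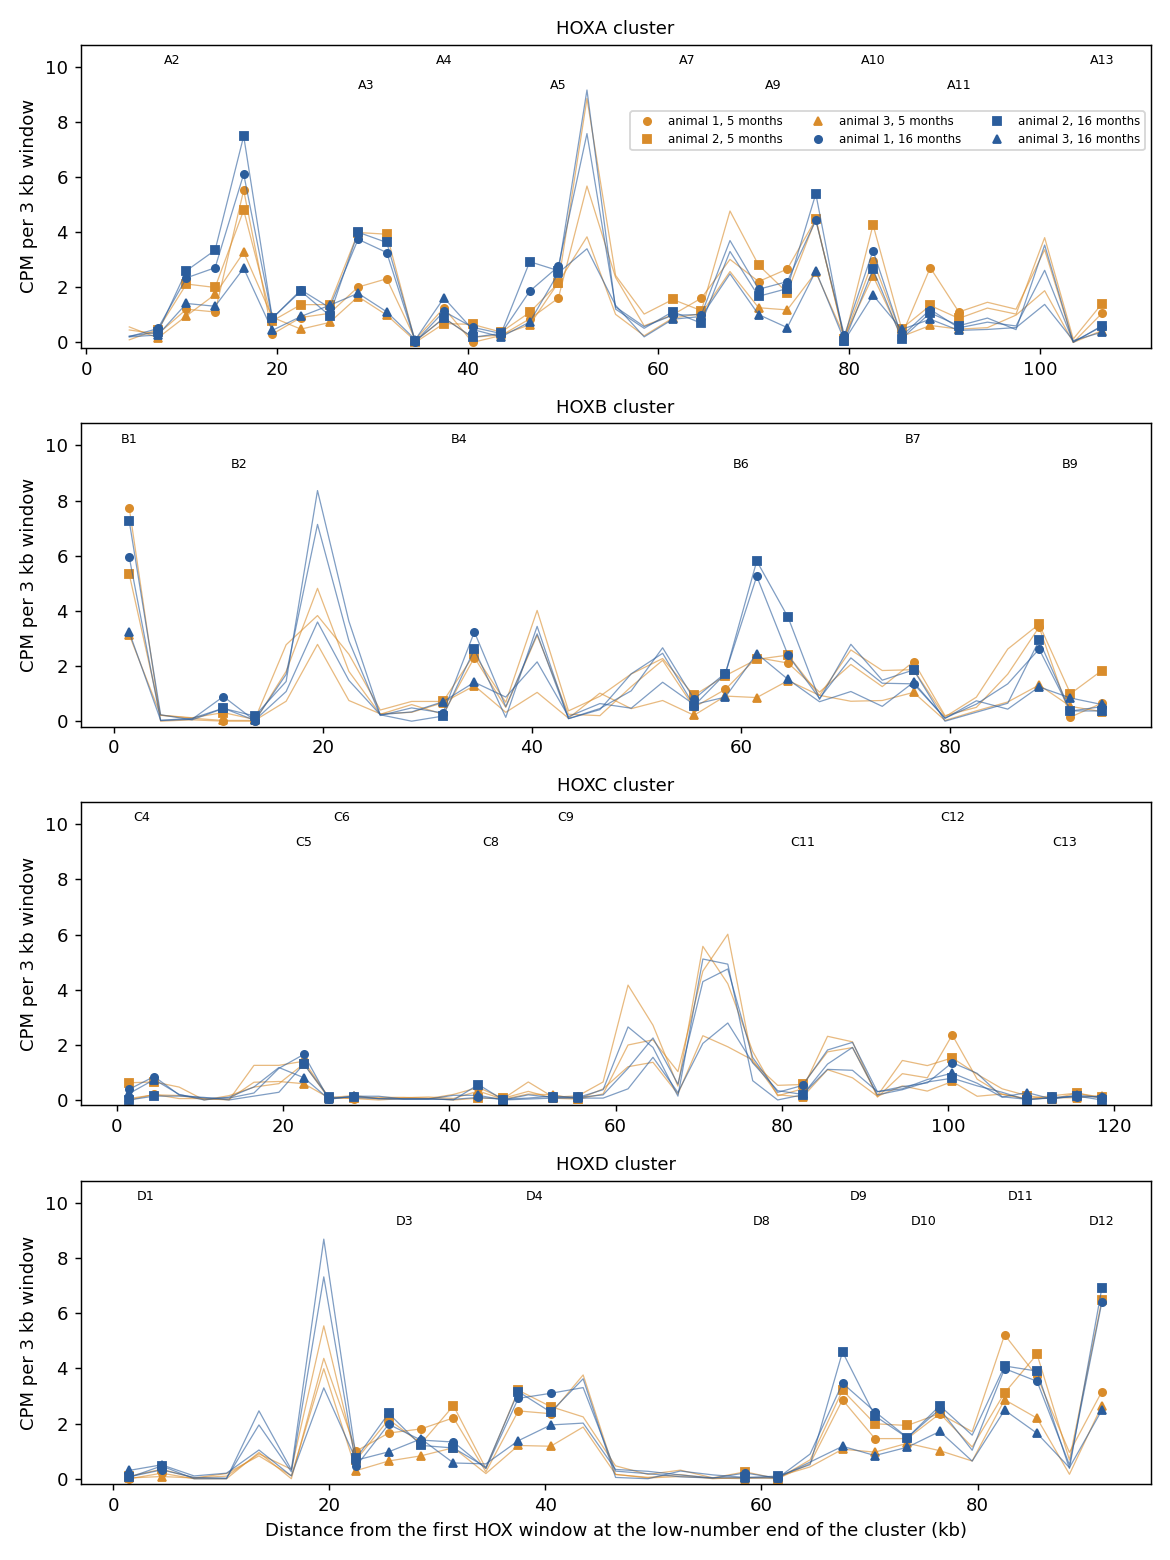
MIRA-Seq level along the HOX clusters in CPM per 3 kb window (vertical axis, the same in all panels) against the distance in kb from the low-number end (horizontal axis). Lines join the windows of a library, markers show windows with a HOX label (colour for age, shape for animal), and gene names stand above their windows. HOXC runs near 0 from HOXC6 to HOXC9 in every library, while HOXD rises from HOXD9 to HOXD12.

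Long stretches of the clusters had hardly any reads. From HOXC6 to HOXC9 (chromosome 5, 26158906 to 26191905) 11 windows over 33 kb, 6 of them with a HOX label, held a sum of 37, 29 and 49 reads at 5 months (animals 1, 2 and 3) and of 30, 27 and 26 at 16 months. In each of the 6 libraries the mean there, 0.0626 to 0.169 CPM, lay below that of all HOX windows. The mean was 0.104 ± 0.0383 CPM, single windows ran from 0.0270 to 0.275 CPM, and none met the CPM minimum. The 4 windows of HOXC13, at the posterior end, had the same mean of 0.104 ± 0.0339 CPM, with 5 to 17 reads per library in all 4 together. HOXD8, a central gene, was the lowest HOX gene, at 0.0680 ± 0.0429 CPM per window, and it had 1, 8 and 3 reads at 5 months and 10, 3 and 2 at 16 months. The signal of HOXD changed sharply beside it, since the 9 windows from HOXD9 to HOXD12 (chromosome 2, 20823034 to 20850033) had 2.35 ± 0.750 CPM and 8 of them met the CPM minimum. These stretches were picked after their values were seen.

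Among the anterior genes (paralogs 1 to 3), HOXB1, which patterns the hindbrain, had the highest level of any HOX gene in its single window. It had 7.73, 5.33 and 3.13 CPM at 5 months and 5.94, 7.25 and 3.23 CPM at 16 months (animals 1, 2 and 3). Animal 3 was lowest at both ages, and the ages overlapped. Its paralog HOXD1 was low, with 0.204 ± 0.123 CPM. HOXB2, the neighbour of HOXB1, had 0.208 ± 0.176 CPM in its 2 windows. HOXA3, whose label spans 11 windows, held the highest window with a HOXA label, at 4.98 ± 1.79 CPM (69386705 to 69389704), and also a window of 0.0540 CPM.

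Among the central genes (paralogs 4 to 8), HOXD4 had 2.33 ± 0.742 CPM per window and HOXA5, the highest of the genes with a HOXA label, had 2.30 ± 0.417 CPM. HOXA6, found by gene ID, was higher, with 4.01 ± 1.37 CPM in 2 windows, of which that from 69350705 had 6.41 ± 2.49 CPM. HOXB6 had 1.84 ± 0.781 CPM and HOXB7 1.62 ± 0.413 CPM. Central genes of cluster C were lower. HOXC5 was the highest of them, with 1.18 ± 0.398 CPM. HOXC4 had 0.339 ± 0.271 CPM, HOXC6 0.0859 ± 0.0198 CPM and HOXC8 0.151 ± 0.0980 CPM. Both labelled genes of paralog group 8 were low, and their mean of 0.110 CPM was the lowest of the 13 groups.

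Among the posterior genes (paralogs 9 to 13), which pattern the lower trunk, limbs and genital tract, HOXD11 and HOXD12 led. HOXD12 had 3.16, 6.48 and 2.65 CPM at 5 months and 6.40, 6.92 and 2.49 CPM at 16 months, so it was high in animal 2 at both ages and in animal 1 at 16 months only. HOXD11 had 3.44 ± 0.929 CPM per window. HOXA9, HOXA10, HOXD9 and HOXD10 lay close together, between 1.72 and 2.20 CPM. The outermost genes were lower, with 0.671 ± 0.262 CPM in HOXA11, 0.739 ± 0.404 CPM in HOXA13 and 0.393 ± 0.0897 CPM in HOXD13, the last found by gene ID. In cluster C, HOXC12 had 1.28 ± 0.622 CPM and HOXC9 0.0924 ± 0.0301 CPM.

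**Figure D2:**
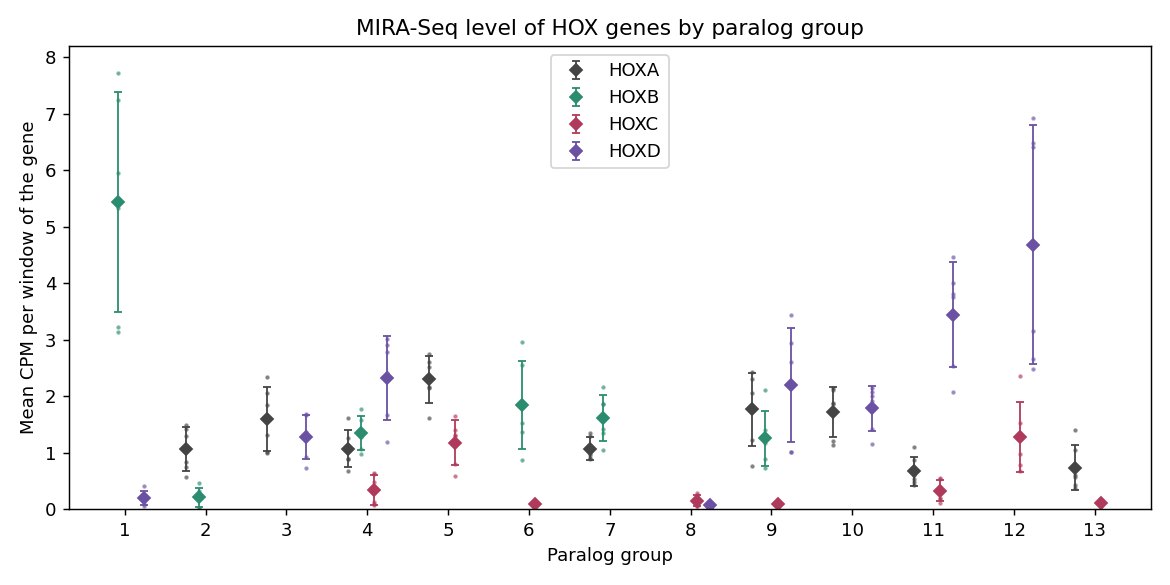
Mean CPM per 3 kb window of labelled HOX genes (vertical axis) by paralog group (horizontal axis). Diamonds with bars are the mean ± SD over 6 libraries, dots are the libraries, and colours are the clusters. HOXB1, HOXD11 and HOXD12 stand above the rest, HOXC genes are the lowest in the paralog groups they share with other clusters except group 8, which is near 0.

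In cluster D the labelled windows were higher toward the posterior end, with anterior, central and posterior windows at 0.918 ± 0.261, 1.20 ± 0.387 and 2.79 ± 0.897 CPM. Spearman's rho between paralog number and level per window was 0.71 over the 8 labelled HOXD genes. HOXD13, the outermost gene, was low, and with it rho was 0.42 over 9 genes and the posterior mean was 2.26 ± 0.714 CPM. Over labelled genes, rho was 0.08 over 10 HOXA genes, -0.26 over 6 HOXB genes and -0.07 over 8 HOXC genes. Genes of 1 cluster share libraries and neighbouring DNA, so these values describe the clusters and carry no p-value. In HOXA the anterior, central and posterior labelled windows had 1.42, 1.38 and 1.51 CPM, and with HOXA6 the central mean was 2.26 ± 0.464 CPM.

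Over all HOX windows, levels differed little between windows with and without coding sequence, but the clusters were not alike. The files print a coding segment number beside 50 of the 72 windows. Windows with a coding segment had 1.34 ± 0.357 CPM and the other 22 had 1.25 ± 0.368 CPM, a gap smaller than the SD between libraries. In HOXC windows with a coding segment had 0.364 ± 0.125 CPM and the 4 without had 0.134 ± 0.0478 CPM, a gap larger than either SD. This gap rested largely on the windows of HOXC5 and HOXC12, at 1.18 and 1.28 CPM. The medians over windows were closer, at 0.167 and 0.0977 CPM. In HOXD the values were 1.93 and 1.33 CPM, and in HOXA the order was turned, at 1.33 and 1.58 CPM. These 2 gaps were no larger than the larger SD of each pair. In HOXD windows with a coding segment were nevertheless higher in every library, and in HOXA in animal 1 at 5 months only. Windows with segment 1 had 1.29 ± 0.276 CPM and those with segment 2, where HOX genes usually carry the homeobox, had 1.36 ± 0.415 CPM. Of the 21 genes with more than 1 window, the first window in the direction of transcription was lower than the mean of the others in 13. The labels resolve windows and not promoters.

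Windows inside the clusters without a HOX label were not uniform either. The 19 that carry another label had 2.01 ± 0.580 CPM, and the 48 without any label had 0.765 ± 0.210 CPM. The 19 include the 2 windows of HOXA6 and the 5 of HOXC10, found by gene ID, with means of 4.01 and 2.03 CPM. Their mean is therefore not that of windows outside HOX genes.

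The comparison by age asked whether the methylation signal of the HOX genes differed between cultures of the same animal at 5 and at 16 months. In HOXB6 1 window rose with age, and the remaining HOX windows gave no call. By edgeR's quasi-likelihood test with the animal as a block, 1 of the 38 HOX windows tested passed the call rule (FDR under 0.1, at least 2-fold). Of all 104658 windows tested 0.185% passed it, 0.0803% higher at 16 months and 0.105% higher at 5 months. A single window is too few to set HOX windows apart from the rest. The study's own scan of 3 kb windows, at the same FDR and fold limits, did not list a region in HOXB6. The reason for this difference was not tested.

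HOXB6, a central gene with roles in trunk and limb patterning, has 4 windows. The called window, on chromosome 19 from 38533275 to 38536274, is the second in the direction of transcription and carries coding segment 2. It had 46, 72 and 32 reads at 5 months (animals 1, 2 and 3) and 229, 125 and 73 at 16 months. In TMM-scaled CPM these were 2.12, 2.39 and 1.39 at 5 months and 5.47, 6.19 and 3.71 at 16 months. Every 16-month culture lay above every 5-month culture, a separation found in 5.28% of all windows tested. The means were 1.96 ± 0.517 and 5.12 ± 1.28 CPM (SD, n = 3), with a log2 fold change (5 over 16 months, negative when higher at 16 months) of -1.38 (SE 0.23, edgeR quasi-likelihood adjusted p = 8.9e-05). The animals differed little in the size of the change, with -1.19, -1.21 and -1.16 on the log2(CPM + 0.5) scale, although the deeper library was the 16-month culture in animal 1 and the 5-month culture in animals 2 and 3. The highest depth at any base was at most 0.375 of the read count in any library, so the reads did not all cover a single base. How evenly they lay over the window was not tested.

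The windows on either side, both also labelled HOXB6, did not pass. They had log2 fold changes of -0.34 (SE 0.25, adjusted p = 0.907, edgeR) toward the gene start and -0.23 (SE 0.37, adjusted p = 0.989) on the far side. In the first of them animals 1 and 2 were higher at 16 months and animal 3 was level. The fourth window, at 0.603 ± 0.250 CPM, was not tested. The difference between the called window and its neighbours was not tested.

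The HOXB6 call was lost without the animal as a block (adjusted p = 1.00, edgeR), with TMM factors from all windows and with no CPM filter. Most calls of the whole table were lost there too, since 0, 25 and 2 of all windows were called, against 194 as reported. The log2 fold change of the HOXB6 window stayed between -1.37 and -1.38 in these settings, and its SE was 0.29, 0.60 and 0.55. The call held on leaving out each animal in turn.

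**Figure D3:**
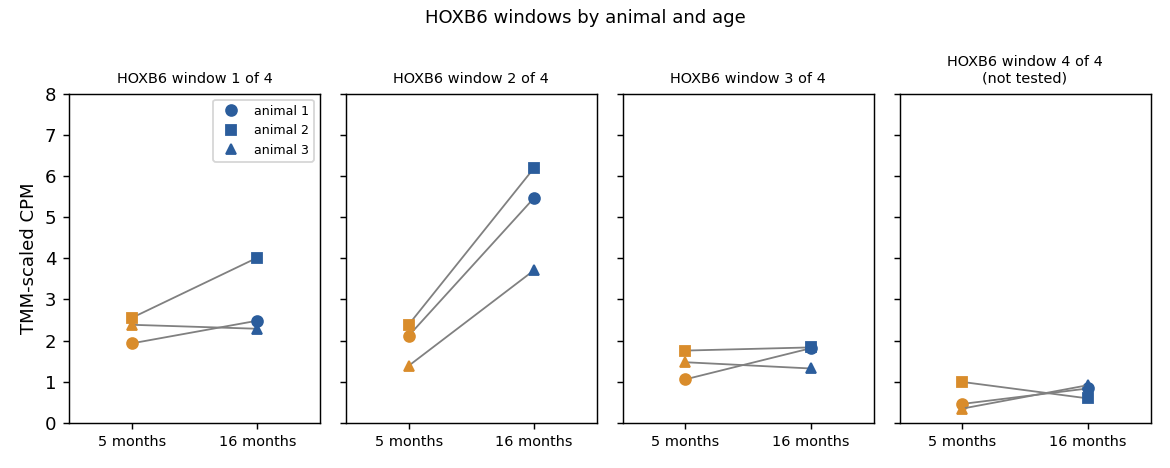
TMM-scaled CPM (vertical axis) of the 4 HOXB6 windows, in the direction of transcription, at 5 and 16 months (horizontal axis). Lines join the cultures of an animal. In the second window all 3 animals rise from 1.39 to 2.39 CPM to 3.71 to 6.19 CPM, while in the others the ages overlap.

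The other 37 HOX windows tested had log2 fold changes from -0.99 to 0.94, and none was called. Of all 38, the HOXB6 window included, 25 had a negative log2 fold change and 13 a positive one, where 52.6% of all windows tested were positive, and the median was -0.23 against 0.02 over all windows. At an unadjusted p under 0.05 there were 6 windows (15.8%, against 7.10% of all windows), of which 5 were higher at 16 months (2.95% of all windows) and 1 was higher at 5 months (4.15%). This count was 3 without animal 1, 2 without animal 2 and 8 without animal 3, and the share of all windows moved with it, at 2.06%, 5.32% and 13.8%. The ages did not overlap in 4 of the 38 (10.5%, against 5.28%). The direction was the same in all 3 animals in 15 windows (39.5%, against 26.0%), 11 of them higher at 16 months, against 11.4% of all windows. Neighbouring windows share fragments and are not independent.

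The window at the gene start of HOXD3, an anterior gene, was the only HOX window with an unadjusted p under 0.05 that was higher at 5 months (chromosome 2, 20787034 to 20790033). Its TMM-scaled CPM were 2.02, 2.82 and 1.82 at 5 months and 1.38, 1.19 and 0.863 at 16 months. The ages did not overlap and each animal was lower at 16 months, but the log2 fold change of 0.94 (SE 0.35) did not pass the adjustment (adjusted p = 0.399, edgeR). The other HOXD3 windows tested were lower at 5 months, at -0.35 and -0.14.

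The 4 remaining windows of this kind lie in HOXA2 and HOXA3, anterior genes that act in the hindbrain and the pharyngeal arches, and all were higher at 16 months. The lowest p among them belonged to the HOXA3 window from 69356705 to 69359704, with 0.782, 1.16 and 1.04 TMM-scaled CPM at 5 months and 1.93, 3.12 and 1.12 at 16 months. Animals 1 and 2 were higher at 16 months while animal 3 was nearly level, and the log2 fold change was -0.99 (SE 0.38, adjusted p = 0.451, edgeR). Without animal 3 it was -1.35 and was called (adjusted p = 0.0387), together with a second HOXA3 window from 69389705 (-1.05, adjusted p = 0.0547), in a fit that called 1.24% of all windows against 0.185% with all animals. The other log2 fold changes were -0.84 in HOXA3, -0.56 in HOXA3 and -0.62 in HOXA2, with adjusted p of 0.655, 0.686 and 0.664.

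Seen along the cluster, HOXA split by order. All 10 tested windows from HOXA2 to HOXA5 had negative log2 fold changes, with a median of -0.41, and 6 of the 7 from HOXA7 to HOXA10 had positive ones, with a median of 0.33. The 2 windows of HOXA6, found by gene ID, lie between these groups and are not counted in them. They had -0.14 beside HOXA5 and 0.47 beside HOXA7. The most negative HOXA window, the HOXA3 window from 69356705, lies between HOXA4 and HOXA5 and not at the anterior end. Summed over the anterior HOXA windows, the log2 ratio of 5 to 16 months was -0.87, -0.32 and -0.00485 in animals 1, 2 and 3, and over the posterior ones 0.08, 0.31 and 0.32. The anterior part was lower at 5 months in animals 1 and 2 and level in animal 3, whereas the posterior part was higher at 5 months to a small degree in every animal. Spearman's rho between order and log2 fold change was 0.73 over the 17 HOXA windows tested, and 0.68, 0.57 and 0.31 in the single animals, while rho between order and level was -0.02. It was 0.36 over 7 HOXB windows and -0.06 over 12 HOXD windows. The split was noticed in these data, and the windows share libraries and neighbouring DNA. Without animal 1 the median of HOXA2 to HOXA5 was -0.17, with 8 of 9 windows negative. Outside the test, the single windows of HOXA11 and HOXA13 had 0.437 to 1.10 and 0.370 to 1.40 CPM, and in each animal were higher at 5 months after TMM scaling.

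**Figure D4:**
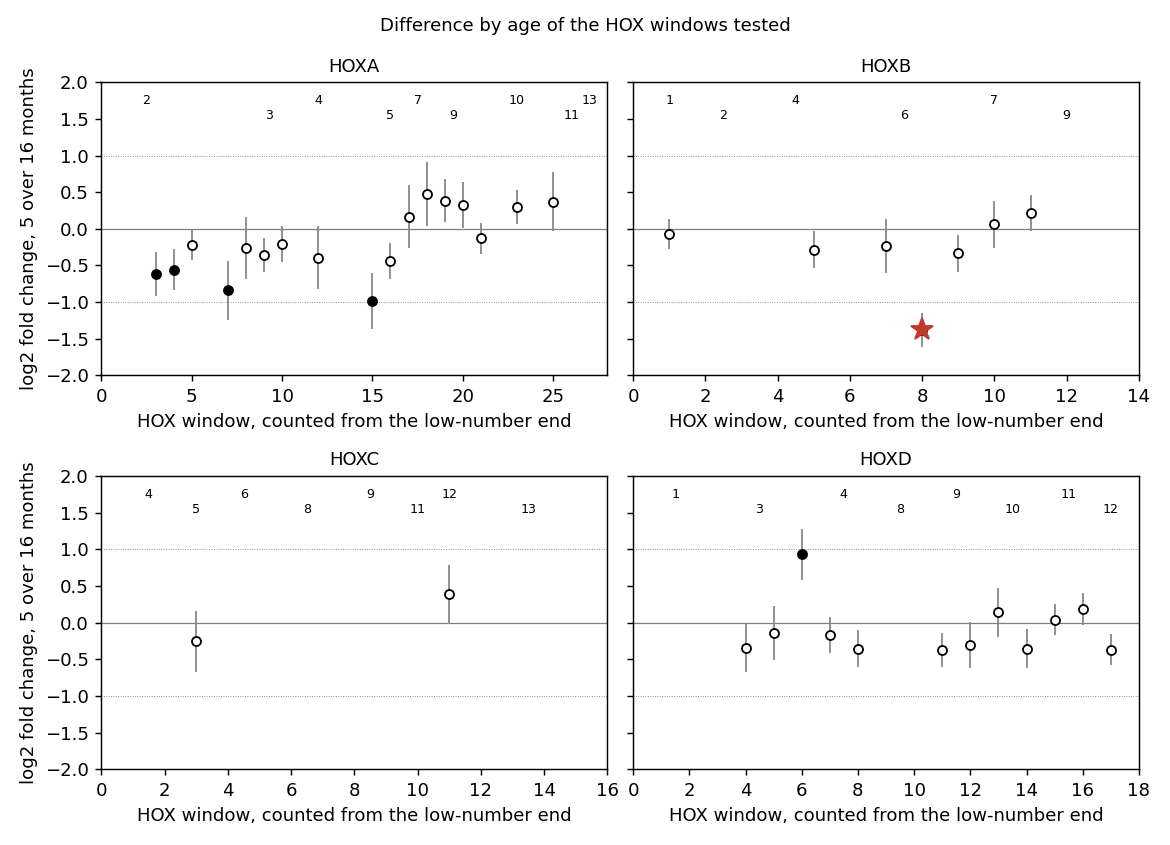
Log2 fold change of 5 over 16 months (vertical axis, points with SE bars from edgeR) of each HOX window tested against its place in the cluster, counted from the low-number end (horizontal axis), with gene numbers above. Filled points have an unadjusted p under 0.05, the star is the called HOXB6 window, and dotted lines mark a fold change of 2. The HOXA windows up to HOXA5 lie below 0 and most of the later ones above it, and HOXC has 2 points.

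Summed by cluster, the log2 ratio of 5 to 16 months in TMM-scaled CPM was -0.14 ± 0.26 in HOXA, -0.28 ± 0.07 in HOXB, 0.02 ± 0.55 in HOXC and -0.14 ± 0.17 in HOXD (SD, n = 3 animals). HOXB was higher at 16 months in every animal, at -0.35, -0.21 and -0.28. Its sum includes the called HOXB6 window, with -1.19, -1.21 and -1.16 on the log2(CPM + 0.5) scale, so the sum alone cannot show a change across the cluster. How much of the HOXB ratio rests on that window was not tested. Of the 7 HOXB windows tested, 5 had a negative log2 fold change, the called window included, and 2 a positive one. The other clusters differed by less than the spread between animals. With 3 pairs an exact test cannot give a p below 0.25.

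Whole genes gave no call. Summed over their windows, 28 of the 32 HOX genes passed the CPM minimum and 0 were called, where 0.00941% of the 21249 genes tested were. With a known change set in 200 genes, the fit of whole genes recovered 12% at 2-fold and 90% at 4-fold. Unadjusted p under 0.05 were found for 2 HOX genes by edgeR's quasi-likelihood test (0.753% of all genes), and for 2 by DESeq2's Wald test (0.626%). HOXB6 as a whole had a log2 fold change of -0.68 (SE 0.32). HOXB2 had -2.47 (SE 0.78, adjusted p = 1.00), with 0, 12 and 2 reads at 5 months and 40, 14 and 15 at 16 months. The HOXB2 difference rested on few reads, and in animal 2 the counts were nearly equal at libraries of unequal depth. Without animal 2, HOXB2, HOXC4 and HOXD1 were called, at -3.91, -2.03 and -1.81, when 295 of all genes tested were (1.37%).

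Genes that act with or on the HOX clusters were also read by window, and none of their windows were called. Lists of HOX cofactors, Polycomb genes, Trithorax genes, genes upstream of HOX and genes beside the clusters had 57, 88, 44, 26 and 12 windows tested, with 5, 4, 5, 2 and 0 at an unadjusted p under 0.05 (edgeR quasi-likelihood). Together these were 16 of 227 windows, where 7.10% of all windows were. Their medians ran from -0.07 to 0.13, against 0.02 over all windows. By DESeq2's Wald test 0 were called as well, and 7 had an unadjusted p under 0.05, as did 2.17% of all windows.

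Among HOX cofactors, which bind DNA together with HOX proteins, the lowest p was in a window of PBX4 (0.91, adjusted p = 0.215). Among Polycomb genes it was in PHC2 (0.72, adjusted p = 0.188), and among Trithorax genes in MLL2 (0.91, adjusted p = 0.218), which encodes a histone H3 methyltransferase. The PBX4 window had 2.07, 2.48 and 4.11 TMM-scaled CPM at 5 months and 1.24, 0.644 and 3.15 at 16 months. In the windows of PBX4, PHC2 and MLL2 every animal was higher at 5 months, with overlap between ages. Without animal 3 they passed the call rule, when 1278 of all windows did (1.24%). RARB, a retinoic acid receptor, led the genes upstream of HOX in the other direction, at -0.56 (adjusted p = 0.415), and EVX1, which lies beside HOXA13, led the genes next to the clusters, at 0.48 (adjusted p = 0.709).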

How the data were processed

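MIRA-Seq libraries of 6 fibroblast cultures were used, grouped by the labels. The authors filtered and trimmed reads, aligned them to UMD v3.1 with NextGENe 2.3.4 and deposited read counts per 3 kb window without normalization. The deposited highest depth of coverage, an unscaled signal, was used only as a share of the count. No source used here gives the handling of PCR copies, so counts are not independent molecules.

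CPM were taken over all windows. Testing required 1 CPM in 3 or more of 6 libraries and was done in R 4.3.3 with edgeR 4.0.16 (quasi-likelihood test, TMM factors over the windows tested, animal as block, Benjamini-Hochberg adjustment, 178 prior and 2 residual degrees of freedom), and called at FDR below 0.1 and fold at least 2. The study's methods name the paired likelihood-ratio test, used here as an alternative. SE is the log2 fold change over the root of F. Median counts were 52 reads per library in HOX windows tested. Figures and descriptions used Python 3.11.15.

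Replicate numbers are the animals. Deviations from the age means correlated at 0.250, 0.495 and 0.710 within animals 1, 2 and 3. Simulated windows gave 190 calls of 200 changed 4-fold, beside 15 false ones, and 68 of 200 changed 2-fold, beside 10 false ones. Whole genes, treated in this way, gave 180 calls of 200 changed 4-fold, beside 11 false ones. At 2-fold they gave 24 of 200, beside 4 false ones.

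HOX members and the gene lists were chosen with earlier results of these data known. Named were each called HOX window or gene, the 3 highest windows and 2 with the lowest p per cluster, the highest and lowest genes per cluster, neighbours of called windows and the lowest p per list. Other named items were chosen after their values were seen, and some items under this rule are not reported here. Alternatives were other scalings, CPM filters, tests and thresholds, no block, leaving out each animal, and other summaries of level. No genome of this build was used, so positions, genes and coding segments are those of the files, and no sequences are shown.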

Additional observations from a re-analysis of the deposited data

How the results depend on the processing

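The HOX windows called by age numbered 0 with TMM factors taken from all windows, 0 with no CPM filter and 0 with no replicate block, against 1 as reported. In these settings 0.0239%, 0.000226% and 0% of all windows tested were called, against 0.185% as reported. There 4, 5 and 3 HOX windows had an unadjusted p under 0.05 by edgeR's quasi-likelihood test, as did 1.90%, 1.21% and 1.22% of all windows tested. The count called was 1 to 3 on leaving out an animal (3 without animal 3, when 1.24% of all windows were called against 0.185%). The HOX genes called ranged from 0 to 3 and the windows of the HOX regulator lists from 0 to 4 on leaving out an animal, with 3 genes without animal 2 (1.37% of all genes) and 4 windows without animal 3, and both were 0 in the other settings. In the fit without the block, the HOXB6 window had -1.38, and the pairing by animal changed no other HOX call. The count was 1 by DESeq2's Wald test, where 0.0143% of all windows were called. By that test the HOXB6 window had an adjusted p of 0.0986, close to the limit of 0.1. The count was also 1 by the likelihood-ratio test and with the other scalings. The cause of these changes was not tested.

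Mean CPM per HOX window over matched reads was 0.886 in HOXA, 1.01 in HOXB, 0.186 in HOXC and 1.08 in HOXD, lower by construction, since counted reads are a part of matched reads. The median window was 1.08 in HOXA and 0.121 in HOXC, and HOXC with HOXC10 added by gene ID was 0.735. HOXC stayed lowest in all of these. Some log2 fold changes near 0 turned sign on leaving out an animal. They ranged from -0.065 to 0.26 in the HOXD11 window from 20838034, from -0.59 to 0.032 in HOXD12, from -0.47 to 0.016 in the HOXA3 window from 69386705 and from -0.21 to 0.14 in HOXB1. The test left out 34 of 72 HOX windows, which fell below the CPM minimum, and 2-fold changes were recovered in 34.0% of simulated windows.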

Other observations

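Between HOXB2 and HOXB4 lies a label, LOC100848766, that was higher at 16 months without passing the call rule. Its window on chromosome 19 from 38575275 to 38578274 had 96, 123 and 104 reads at 5 months (animals 1, 2 and 3) and 311, 180 and 107 at 16 months, and 5.09 ± 2.20 CPM over the 6 libraries. The log2 fold change was -0.73 (SE 0.21, edgeR quasi-likelihood adjusted p = 0.137), and in the window next to it, from 38572275, it was -0.76 (SE 0.26, adjusted p = 0.323). Of the 67 windows inside the clusters without a HOX label, 25 were tested, 0 were called and 5 had an unadjusted p under 0.05 (20%, against 7.10% of all windows), of which 3 were higher at 16 months (2.95% of all windows) and 2 at 5 months (4.15%). The largest of the last 2, under LOC100337349 beside HOXB9, had 0.94 (adjusted p = 0.592), and a window without a label between HOXC9 and HOXC11 had 0.90 (adjusted p = 0.329), with reads of 83, 64 and 45 at 5 months and 50, 57 and 12 at 16 months. A window labelled LOC100295298 between HOXD1 and HOXD3 had -0.97 (adjusted p = 0.432).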
